A study of Mus musculus with 12 samples.

Results

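The lung metastasis libraries of 4599, a mouse melanoma cell line, were compared with all libraries from primary tumours of the same line. The comparison took the 3 libraries that the labels call Met and the other 9 of the 12 in the series, 3 each of the groups TB, PIF and DIF. Met cells came from melanoma metastases in the lung, and TB, PIF and DIF cells from parts of orthotopic tumours, which grow where the melanoma would arise. The labels leave the 3 abbreviations unexplained, and do not name the host mouse or say whether libraries of a group came from separate animals, so p-values measure the spread between these libraries. Cells of every group had been taken out of the animal and plated on fibrillar bovine collagen at 1.7 mg/ml for 24 h in 10% serum and a further 24 h in 1% serum before lysis, so differences were read in culture and not in the lung. All groups carry the 1 cell line, and what holds for it may not hold for other melanomas.

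Melanoma that spreads to the lung leaves the skin, survives in blood, crosses a vessel wall and resumes growth in a foreign tissue. Secreted factors of the TGF-beta, BMP and FGF families, vessel-acting factors such as the angiopoietins, and the enzymes that cut or crosslink matrix are among the gene products long studied in that sequence. Cells grown out of a metastasis can keep differences from the primary tumour in culture, either because they were selected or because they changed. The comparison here describes such differences and does not tell those alternatives apart. In bulk RNA, fewer cells with a transcript and less transcript per cell cannot be told apart.

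Levels are given as FPKM, fragments scaled by gene length and by library size, and differences as Met minus the mean of the TB, PIF and DIF means on log2(FPKM + 1), which understates the change of genes with low FPKM. A gene was called at an adjusted p under 0.05 in limma over 12661 genes, those whose FPKM averaged 0.5 or more across the 12 libraries. The libraries held 15.5 to 18.4 M reads assigned to genes. Met libraries held 18.1 ± 0.182 M (SD, n = 3) and the others 17.5 ± 0.962 M (n = 9), a difference with p = 0.245 in an exact two-sided permutation test, whose smallest possible p was 0.00909. Mitochondrially encoded genes took 0.579 ± 0.0512% of reads in Met and 0.542 ± 0.0887% in the others (exact permutation p = 0.491). No ribosomal protein gene of 50 and no mitochondrially encoded gene of 15 was called, while 3 of 18 heat shock genes were called higher in Met (Hspb1, Dnajb4 and Hspb8), 16.7% against 4.83% of all genes tested. Of the ribosomal protein genes 49 of 50 differences were below 0 (median −0.08), and of the mitochondrial genes 13 of 15 were above 0 (median 0.09).

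Sox10, the neural crest factor that defines the melanocyte lineage, stood at 207 to 235 FPKM in Met and at 203 to 269 in the other libraries. The pigment enzymes Tyr and Tyrp1 were at 0 in all 3 Met libraries and at most 0.0325 FPKM elsewhere. The summed level of 11 lung epithelium markers was 0.375 to 1.44 FPKM in Met and 0.412 to 1.20 in the primary libraries, and the surfactant genes Sftpc, Sftpa1 and Sftpd and the lung factor Nkx2-1 were at 0 in every Met library. Other members were not all at 0. Scgb1a1, a club cell protein, stood at 0.231 FPKM in Met 1 and at 0 in the other 11 libraries, Ager, an alveolar type I marker, reached 0.433 in Met 3 against at most 0.372 in the primary libraries, and Sftpb stood at 0.027 in Met 2. The 8 endothelial markers summed to 0.0515 to 0.177 FPKM in Met and 0.0996 to 0.360 elsewhere, with Vwf the most abundant. Pecam1, the endothelial CD31, was above every primary library, at 0.0175 to 0.0441 FPKM against at most 0.00963. Vwf averaged 0.0601 FPKM in Met and 0.263, 0.138 and 0.0777 in TB, PIF and DIF. Kdr, Tie1, Emcn and Cldn5 were at 0 in Met, and the Met means of Cdh5 and Tek lay between those of the primary groups. All levels of this list were near the floor. The 10 leukocyte markers summed to 1.01 to 1.26 FPKM against 0.873 to 3.25, most of it Cd68. Cd3e, Itgam, Adgre1 and Tyrobp were at 0 in every library, and Ptprc was at 0 in Met and at most 0.0186 FPKM elsewhere. The 8 fibroblast markers summed to 7.87 to 9.96 FPKM against 5.58 to 16.0, most of it Col3a1, which makes a fibrillar collagen. Thy1, a fibroblast surface marker, was above all others at 0.237 to 0.404 FPKM in Met, at 0 in TB and PIF and at most 0.145 in DIF. Col1a1 stood at 0.641 to 1.28 FPKM in Met against 0.0332 to 0.887. For Col3a1, Dcn, Pdgfra and Pdgfrb the Met mean lay between the means of the primary groups. Col3a1 averaged 7.09 FPKM in Met and 10.6, 6.86 and 12.3 in TB, PIF and DIF. Pdgfrb averaged 0.163 FPKM in Met and 0.0931, 0.034 and 0.483 in TB, PIF and DIF. Lum was at 0 in Met, and Col1a2 averaged at most 0.0279 FPKM in any group. The part of these markers in the results was not tested.

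Met differed from the primary groups in 1181 genes, 9.33% of those tested, with 611 higher (4.83%) and 570 lower (4.5%). The differences were mostly small. The median size among called genes was 0.38 on the log2 scale, and 37 rises and 36 falls reached 2-fold. For 670 genes (5.29% of those tested) the 3 Met values lay beyond all 9 other values, 387 above (3.06%) and 283 below (2.24%). Both conditions held for 496 genes (3.92%), 293 higher (2.31%) and 203 lower (1.6%), of which 465 were protein-coding. The other 685 called genes overlapped at least 1 primary library, so 42.0% of the called genes set the 3 Met libraries apart from every other. The number of calls was 680 without the library Met 2, 667 without Met 3, and 156 in a fit that treated the 9 primary libraries as 1 group with their mutual differences in the spread. Without Met 1, 1248 genes lay beyond all others, a count that can only stay or rise when a library is left out.

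**Figure D1:**
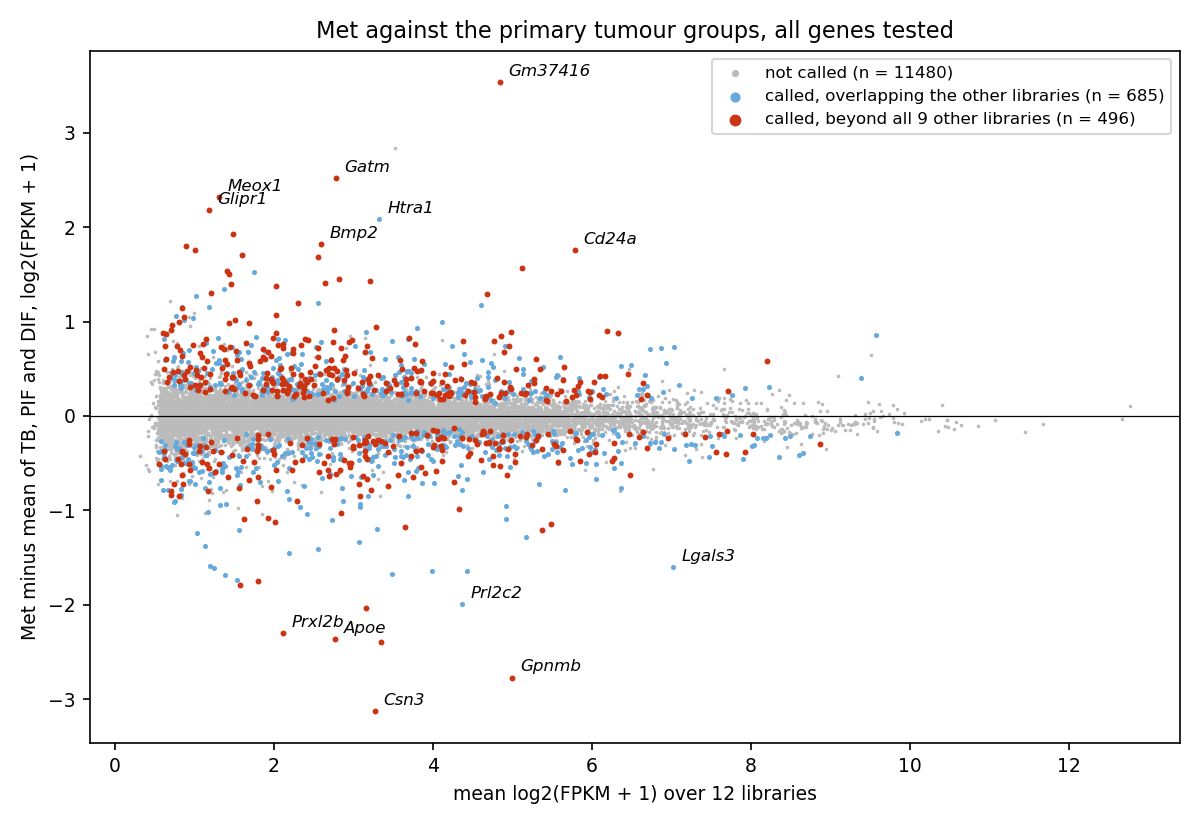
Difference between Met and the mean of TB, PIF and DIF against mean level, both on log2(FPKM + 1), for the 12661 genes tested, each 1 point. The 496 genes called and beyond all 9 other libraries are red and run from Gm37416 at 3.54 to Csn3 at −3.13; the 685 called genes that overlap a primary library are blue.

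The 3 primary groups were not equally far from Met. Against TB, 1259 genes were called (9.94%), 673 higher (5.32%) and 586 lower (4.63%), against PIF 2234 (17.6%), 1120 higher (8.85%) and 1114 lower (8.8%), and against DIF 489 (3.86%), 299 higher (2.36%) and 190 lower (1.5%). These 3 comparisons share the Met libraries. Over all genes tested, the root mean square difference between libraries was 0.271 to 0.331 on the log2 scale for Met and DIF pairs, 0.335 to 0.376 for Met and TB pairs and 0.383 to 0.440 for Met and PIF pairs, and 0.206 to 0.251 among the Met libraries. DIF was the nearest group for 478 of the 685 called genes that overlapped, and for 269 of the 496 that did not. By an intersection-union test, which takes the largest of the 3 p-values for each gene, 68 genes (0.537%) differed from TB, from PIF and from DIF, 48 higher and 20 lower, and all 68 were among the 496.

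Gatm, the mitochondrial enzyme that makes guanidinoacetate in the first step of creatine synthesis, had, of the protein-coding genes, the largest difference from its nearest primary group (chromosome 2, 122424948 to 122441784, minus strand, as the deposited table lists it; the genome build is not given in the sources used here). It stood at 24.6, 24.8 and 24.4 FPKM in Met, against a lowest, median and highest primary value of 2.78, 3.52 and 3.96. The Met libraries lay within 1 FPKM of each other and far above every primary library. Met was 7.08-fold higher by mean FPKM, a difference of 2.52 ± 0.05 (SE) on the log2 scale with a limma adjusted p of 2.29e-10. The other creatine genes looked up were not called higher. Gamt, which methylates guanidinoacetate to creatine, stood at 31.0 ± 1.38 FPKM in Met and 29.1 in the primary mean (adjusted p = 0.269), the creatine kinase Ckb differed by −0.03 (adjusted p = 0.87), and the creatine transporter Slc6a8 was called lower (−0.38, adjusted p = 0.00986), with −0.26, −0.91 and 0.04 against TB, PIF and DIF. Gamt, Ckb and Slc6a8 were chosen after their values were seen.

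Secreted signals made up several of the next largest rises. Bmp2, a ligand of the BMP receptors, stood at 14.8, 13.4 and 15.8 FPKM in Met and at 1.82, 3.69 and 5.77 at the lowest, median and highest of the primary libraries. Angpt2, the angiopoietin that competes with Angpt1 at the endothelial receptor Tek and loosens vessels, stood at 6.36, 6.18 and 6.58 FPKM against 0.752, 1.12 and 1.89. Fgf7, the keratinocyte growth factor, stood at 4.93, 8.17 and 7.14 FPKM against 0.402, 0.583 and 2.81. The primary library nearest to Met was a PIF library for Bmp2 and Angpt2 and a DIF library for Fgf7. The differences were 1.82 ± 0.08, 1.71 ± 0.07 and 1.93 ± 0.12 on the log2 scale, with limma adjusted p-values of 8.62e-08, 4.18e-08 and 1.88e-06. Angpt2 lies within Mcph1 on the opposite strand over 51300 shared bases, and whether counting used strand is not given in the sources used here; Mcph1 itself differed by 0.08 (adjusted p = 0.515). Igf1, a growth factor outside the naming rule and chosen after its values were seen, was also beyond all others at 2.76 ± 0.228 FPKM against a primary mean of 1.32, a difference of 0.71 (adjusted p = 7.06e-05).

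Among membrane and matrix proteins, Cd24a, a glycosylated surface protein anchored by a lipid tail and used as a marker of progenitor-like tumour cells, was the most abundant of the top rises. It stood at 124, 143 and 146 FPKM in Met and at 28.8, 40.0 and 55.3 at the lowest, median and highest of the primary libraries. Glipr1, a secreted or membrane-bound protein of the CAP family, stood at 4.81, 7.32 and 6.29 FPKM against 0.177, 0.331 and 1.48, and the 3 DIF libraries formed the upper end of that primary range. Papln, a papilin-type matrix protein, stood at 67.0, 39.2 and 45.3 FPKM against 9.04, 20.1 and 29.1. Papln varied more within Met than Cd24a and Glipr1 (SD 14.6), and its limma adjusted p against DIF was 0.0466. Smoc2, a secreted calcium-binding matrix protein, came close to overlapping at 13.2, 21.0 and 22.5 FPKM against 2.37, 7.44 and 11.9, and it was not called against DIF (adjusted p = 0.0695). Glipr1 shares 2985 bases with Krr1 on the other strand, which differed by 0.03 (adjusted p = 0.788).

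Among the top rises were 3 transcription factors. Meox1, a homeobox factor of the somites, stood at 6.37, 8.89 and 6.90 FPKM in Met, at 2.52 to 3.15 in DIF and at no more than 0.156 in TB and PIF. Foxs1, a forkhead factor of pericytes and neural crest derivatives, stood at 4.91, 2.62 and 3.95 FPKM, at 0.872 to 1.83 in DIF, at most 0.291 in PIF and 0 in every TB library. Both genes thus ran in 3 steps, with DIF between the other primary groups and Met. Atoh8, a helix-loop-helix factor, stood at 12.8, 14 and 15.3 FPKM against 2.24, 4.88 and 7.47, and again DIF was the nearest primary group. The remaining top rises were Tmem37, a calcium channel gamma-like subunit (difference 1.31), Mtmr7, a phosphoinositide phosphatase (1.15), Aldh3a1 (1.68) and Cyp1a1 (1.39), each with an adjusted p of 0.000272 or less. Dlk1, an imprinted Notch-related surface protein outside the rule and chosen after its values were seen, stood at a mean of 5.0 FPKM in Met and 0.587, 2.46 and 0.547 in TB, PIF and DIF.

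**Figure D2:**
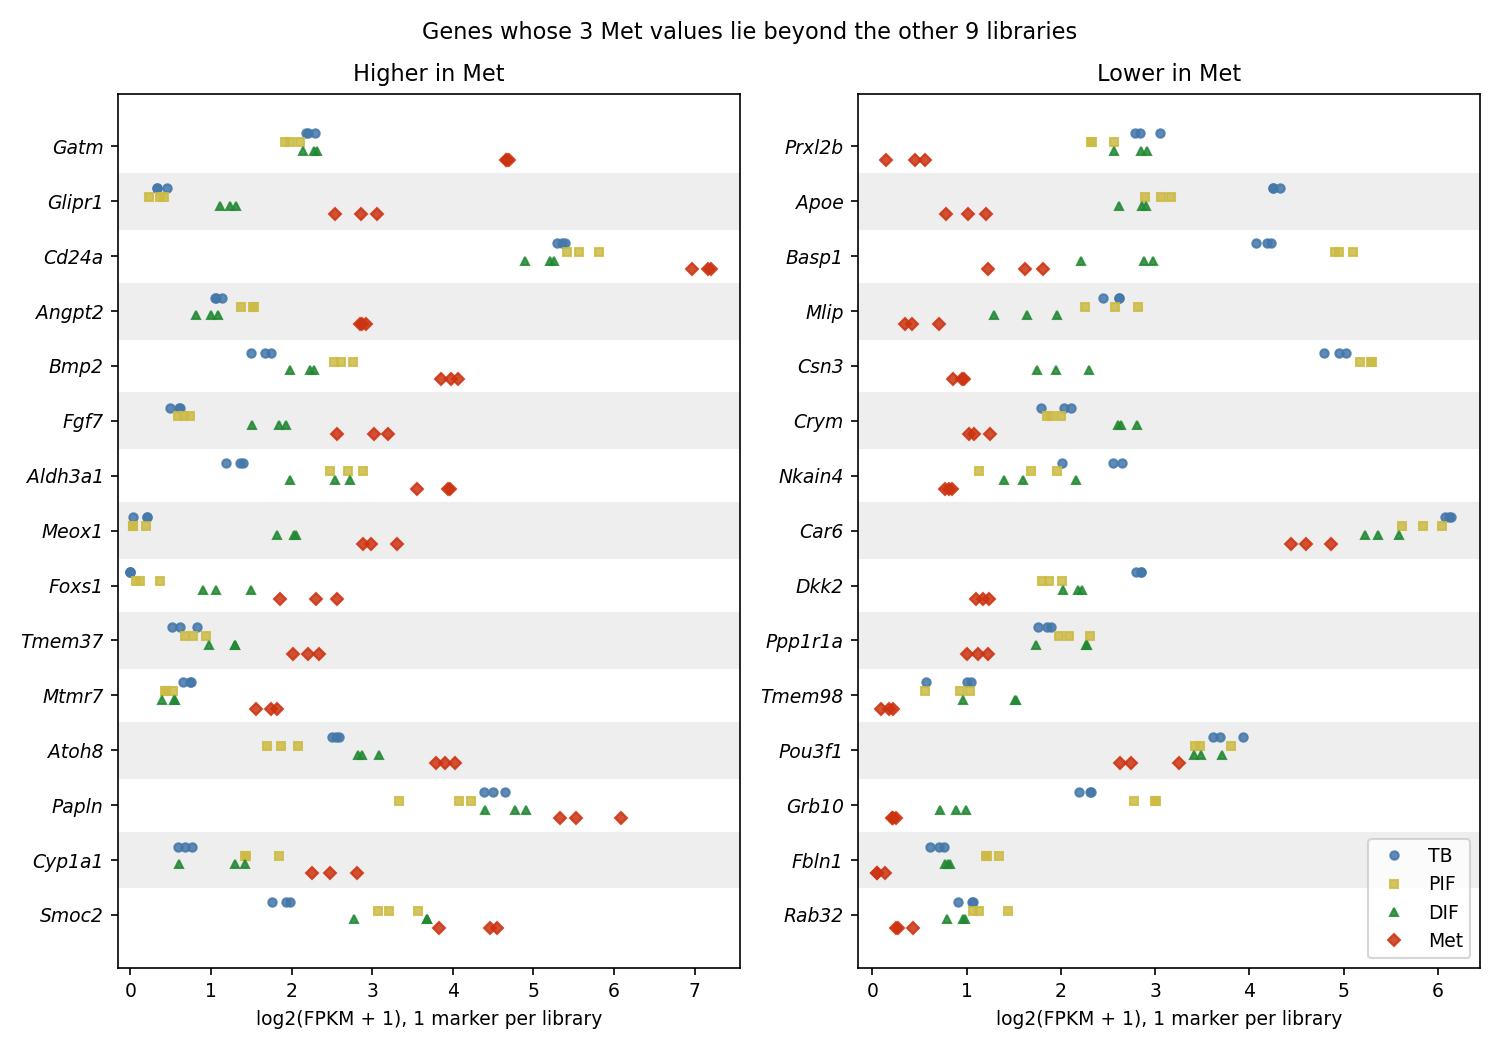
Level in each library, as log2(FPKM + 1), for the 15 rises and 15 falls with the largest difference from the nearest primary group, 1 marker per library and gene. Genes were picked so that the red diamonds, the Met libraries, stand apart from all others in each row. The gap is widest for Gatm and narrow for Smoc2 and Nkain4.

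The falls were led by Prxl2b, a peroxiredoxin-like enzyme of prostaglandin F synthesis, and by Apoe, a lipid carrier studied as a suppressor of melanoma metastasis. Prxl2b stood at 0.107, 0.372 and 0.478 FPKM in Met and at 3.98, 5.91 and 7.30 at the lowest, median and highest of the primary libraries. Apoe stood at 0.720, 1.02 and 1.30 FPKM against 5.11, 7.34 and 19.0. Both genes were picked for not overlapping, and the lowest primary library was above the highest Met library by a wide margin. Mean FPKM was 17.4-fold and 10.4-fold lower in Met, with differences of −2.30 ± 0.11 and −2.37 ± 0.09 (limma adjusted p = 8.62e-08 and 3.24e-08). Apoe is also a macrophage gene, and summed leukocyte markers were 1.01 to 1.26 FPKM in Met and 0.873 to 1.54 in DIF. They were 1.80 to 3.25 in PIF and 1.75 to 2.50 in TB. Most of that sum was Cd68, at a mean of 0.943, 0.770, 2.05 and 1.34 FPKM in Met, DIF, PIF and TB. The list members Itgam, Adgre1 and Tyrobp were at 0 in every library. The part of these markers in the Apoe result was not tested.

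For several falls DIF lay between Met and the other primary groups. Csn3, kappa-casein, had the largest fall on the log2 scale among the named genes, with 0.940, 0.815 and 0.959 FPKM in Met, 2.36 to 3.91 in DIF and 26.8 to 38.4 in TB and PIF. Basp1, a membrane-bound growth cone protein, stood at 1.34, 2.50 and 2.06 FPKM in Met, 3.64 to 6.87 in DIF and 15.8 to 33.3 in TB and PIF. Grb10, an imprinted adaptor that dampens insulin and IGF receptor signalling, stood at 0.157, 0.186 and 0.168 FPKM in Met, 0.640 to 0.986 in DIF and 3.58 to 7.03 in TB and PIF. Met was below DIF in each case, and DIF was in turn below TB and PIF. The differences against DIF were −1.07, −1.14 and −0.63, and those against PIF −4.33, −3.44 and −2.70. Mlip, a lamin-interacting protein, also had DIF in between, at 0.414 ± 0.190 FPKM in Met and 3.99 in the primary mean.

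In other falls DIF was not the nearest primary group. Dkk2, a secreted WNT antagonist, stood at 1.14, 1.25 and 1.35 FPKM in Met and 2.48, 3.54 and 6.23 in the primary libraries. Crym, a thyroid hormone binding protein, stood at 1.38, 1.03 and 1.11 FPKM against 2.47, 3.08 and 5.99, with DIF the highest group. Fbln1, an extracellular matrix glycoprotein, stood at 0.0378, 0.0375 and 0.0999 FPKM against 0.529, 0.747 and 1.53. Limma adjusted p-values for these 3 genes were 1.63e-05 or less. Rab32, a small GTPase of melanosome formation, was at 0.249 ± 0.0877 FPKM in Met and 1.08 in the primary mean (difference −0.73, limma adjusted p = 0.000406). Fbln1, Rab32, Prxl2b, Grb10 and Mlip averaged under 0.5 FPKM in Met. They passed the filter of 0.5 only through the primary libraries, and their differences and p-values rest on Met values near the floor. Pou3f1, an octamer-binding factor of neural crest glia, fell by 0.74 (adjusted p = 0.00347). The remaining named falls were Nkain4, which binds a sodium pump subunit, Car6, a secreted carbonic anhydrase, Ppp1r1a, a protein phosphatase inhibitor, and Tmem98, a transmembrane protein, with differences between −1.14 and −0.85; Nkain4 was not called against DIF (adjusted p = 0.0557). Of the 15 named rises, 12 differed from each primary group in the intersection-union test, and of the 15 named falls 12. These genes were named for a large difference from their nearest group, which favours that outcome.

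Cyp1a1 and Aldh3a1 among the top rises are textbook targets of the aryl hydrocarbon receptor, the ligand-activated factor encoded by Ahr that senses planar aromatic compounds and tryptophan metabolites and pairs with Arnt. The remaining genes of the route were therefore looked up after these values were seen, and their choice is no independent support. Ahr stood at 6.92, 7.13 and 7.46 FPKM in Met and at 3.07, 3.36 and 4.82 at the lowest, median and highest of the primary libraries. Cyp1a1, a xenobiotic-oxidising cytochrome, stood at 4.56, 3.76 and 6.01 FPKM against 0.510, 1.46 and 2.60. Aldh3a1, an aldehyde dehydrogenase, stood at 10.8, 14.6 and 14.4 FPKM against 1.27, 4.55 and 6.42. Met libraries were above every primary library for all 3, with differences of 0.81, 1.39 and 1.68 (limma adjusted p = 1.3e-05, 0.000272 and 2.37e-05).

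Ugt1a7c, a glucuronosyltransferase whose first exon is 1 of several in a shared gene complex, was also beyond all others at 1.54 ± 0.185 FPKM against 0.572 (difference 0.70, adjusted p = 0.000505), and reads of the shared exons may be split among its neighbours. Cyp1b1 was beyond all others by a small margin, at 14.9 to 15.7 FPKM in Met and 13.2 to 14.7 in DIF, and was not called against DIF (adjusted p = 0.619). Tiparp and Nqo1 were called higher (0.53 and 1.19) but overlapped PIF, where Nqo1 stood at 6.99 to 12.2 FPKM against 8.0 to 11.8 in Met. Arnt, the partner, differed by 0.01 (adjusted p = 0.91). Of 31 tested NRF2 targets, a list that holds Nqo1, 6 were higher and 4 lower, with 2 higher without Met 2 or without Met 3 and 2 lower without Met 2.

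**Figure D3:**
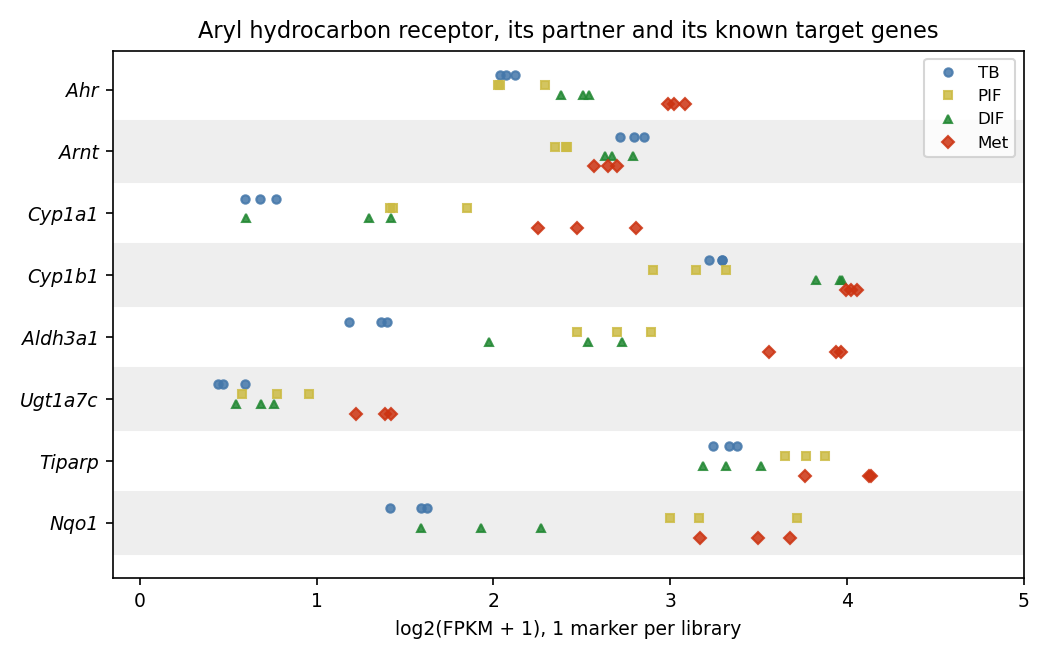
Level in each library, as log2(FPKM + 1), of Ahr, its partner Arnt and 6 genes that the receptor is known to activate, 1 marker per library. Met libraries lie above all others for Ahr, Cyp1a1, Cyp1b1, Aldh3a1 and Ugt1a7c, overlap PIF for Tiparp and Nqo1, and lie within the others for Arnt.

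Of 828 genes tested in 29 pathway lists, 110 were called higher and 99 lower. The lists are described by these counts beside the 4.83% and 4.5% of all genes tested, and by their medians beside −0.00054 for all genes tested. In the TGF-beta and BMP list, 14 of 40 genes were called higher and 1 lower, 9 of the rises were beyond all others, and the median difference was 0.16. Ligands came first, with Bmp2 and with Tgfb3 at 19.3 ± 2.21 FPKM against 10.1, 8.30 and 15.8 in TB, PIF and DIF. Of the BMP receptors, Acvr1 and Bmpr1a rose by 0.24 and 0.25, while the TGF-beta receptors Tgfbr1 and Tgfbr2 differed by −0.02 and −0.16 (adjusted p = 0.894 and 0.311). Among target genes, Id1, Id2, Id3 and Id4, inhibitors of helix-loop-helix factors, rose by 0.56 to 0.71, Bambi, a decoy receptor, by 0.61, and Tgfbi, a matrix protein induced by TGF-beta, by 0.79. The inhibitory Smad6 and Smad7 rose by 0.67 and 0.36.

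Within that list, Id4 stood at 19.3, 17.3 and 19.4 FPKM in Met and at 10.4, 12.7 and 14.5 at the lowest, median and highest of the primary libraries. Tgfbi stood at 29.4, 30.0 and 32 FPKM against 13.0, 16.8 and 21.4. Both were apart from every primary library, whereas Id3, at 145 to 157 FPKM, overlapped DIF at 137 to 153. The fall was Grem1, a secreted BMP antagonist, at 27.1 ± 4.37 FPKM in Met between DIF (18.0) and TB (51.7). Members were called higher against each primary group, 14 against TB, 13 against PIF and 6 against DIF, where 5.32%, 8.85% and 2.36% of all genes were called higher. Without the library Met 3, 9 of the 40 were called higher, and in the fit with the primary libraries as 1 group 6.

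In the G2 and mitosis list, 22 of 45 genes were called higher and none lower, 13 of the rises beyond all others. The changes were small, with a median of 0.20, and 44 of the 45 differences were above 0. Cenpf, a kinetochore protein, stood at 10.7, 9.80 and 10.0 FPKM in Met and at 5.81, 7.79 and 8.64 at the lowest, median and highest of the primary libraries. Ccnb1, the mitotic cyclin B1, stood at 68.6 to 71.3 FPKM against 50.3 to 67.1, and Ccnb2, the second B cyclin, at 114 to 118 against 81.9 to 113. The groups did not overlap for any of these 3 genes, and the highest TB values of Ccnb1 and Ccnb2 lay close below Met. Foxm1, a factor that drives this gene class, rose by 0.24 (adjusted p = 0.0162). Against TB 1 of the 45 was called higher, against PIF 29 and against DIF 14, with medians of 0.07, 0.28 and 0.27. The shares of all genes called higher against TB, PIF and DIF were 5.32%, 8.85% and 2.36%. Of 45 genes of the G1 to S transition and replication, 1 was higher and 4 lower. Those falls were 0 without Met 2, 1 without Met 1 or Met 3, and 2 without TB 3.

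Those 22 calls depended on single libraries. They were 5 without Met 2 or without Met 3, 10 without Met 1, 12 to 14 without TB 1, TB 2 or TB 3, 13 without DIF 2, and 0 in the fit with the primary libraries as 1 group. The median kept its sign under these choices, between 0.18 and 0.22 with 1 library left out.

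Promoters of mitotic genes are known for the cell cycle homology region, a short element bound by the DREAM complex. Its letters TTTGAA, on either strand, were found in 26 of 38 list promoters (68.4%) that matched the RefSeq table, in 12 of the 17 with a called gene (70.6%) and in 11.7% of the promoters of 9025 tested genes. The window was 300 bases, 250 before and 50 after the start, and a match is a description of the letters and not a site. The promoters of Ccnb2 (chr9:70421505-70421804, minus strand) and Cenpf (chr1:189688037-189688336, minus strand) are shown as RefSeq gives them in GRCm38.p6, because both genes were called and beyond all others. Capitals mark TTTGAA on either strand, and in each promoter 1 match lies just past the start.
Ccnb2: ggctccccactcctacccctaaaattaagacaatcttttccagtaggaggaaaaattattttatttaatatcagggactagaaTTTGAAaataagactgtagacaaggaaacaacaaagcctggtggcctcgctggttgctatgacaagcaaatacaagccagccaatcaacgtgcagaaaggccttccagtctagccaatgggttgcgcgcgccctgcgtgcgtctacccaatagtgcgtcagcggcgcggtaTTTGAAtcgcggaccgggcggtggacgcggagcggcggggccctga
Cenpf: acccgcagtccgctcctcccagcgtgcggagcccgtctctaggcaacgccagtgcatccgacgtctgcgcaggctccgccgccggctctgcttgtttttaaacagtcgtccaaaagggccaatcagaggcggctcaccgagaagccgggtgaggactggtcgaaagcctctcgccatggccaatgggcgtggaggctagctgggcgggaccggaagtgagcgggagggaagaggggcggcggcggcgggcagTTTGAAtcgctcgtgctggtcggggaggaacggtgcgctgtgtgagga

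ATF4 and unfolded protein response genes had a median below 0, with 21 of 45 called lower, 1 higher and a median of −0.26. ATF4 is the factor that raises amino acid synthesis and transport when nutrients or protein folding fail. Phgdh, the first enzyme of serine synthesis, was beyond all others at 57.5, 68.8 and 65.8 FPKM in Met against 71.0, 107 and 124, while Trib3 and Asns, the pseudokinase and asparagine synthetase used as ATF4 markers, overlapped DIF. Only Phgdh, Slc7a5 and Xbp1 were both called and beyond all others. By group, 36 members were called lower against PIF, 14 against TB and 1 against DIF, with medians of −0.50, −0.21 and 0.00. The shares of all genes called lower against PIF, TB and DIF were 8.8%, 4.63% and 1.5%. Ddit4, a stress-induced inhibitor of mTORC1, was the 1 member called higher, by 0.40, and also the 1 called lower against DIF. The count of 21 was 13 without Met 1, 14 without Met 3 and 0 in the fit with the primary libraries as 1 group.

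Of 39 lysosomal genes, 19 were called lower and 2 higher, with a median of −0.19, and 8 of the falls were beyond all others. Hexa, a subunit of beta-hexosaminidase, stood at 207, 198 and 193 FPKM in Met and at 225, 258 and 305 at the lowest, median and highest of the primary libraries. Scarb2, a lysosomal membrane receptor, stood at 24.2, 19.7 and 19.8 FPKM against 24.9, 34.8 and 40.6. Laptm4b, a lysosomal transmembrane protein, was at 36.2 ± 2.65 FPKM against 42.8 to 61.5 in the primary libraries, a fall of 0.49 called against each group. Scarb2 nearly met the lowest DIF library, and the cathepsins Ctsb, Ctsl and Ctsd were at the level of DIF. Against TB 17 were lower, against PIF 20 and against DIF 2, where 4.63%, 8.8% and 1.5% of all genes were called lower. The rises were Lipa, the acid lipase, and Ctsh, a cathepsin, which rose by 0.35 and 0.58. The count of falls was 10 without Met 3, 13 without Met 2, and 1 in the fit with the primary libraries as 1 group. The CLEAR core, with the letters TCACGTGA, was found in 4 of 29 matched promoters of the list (13.8%). It was found in 1 of the 15 with a called gene (6.67%) and in 2.17% of the promoters of tested genes.

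**Figure D4:**
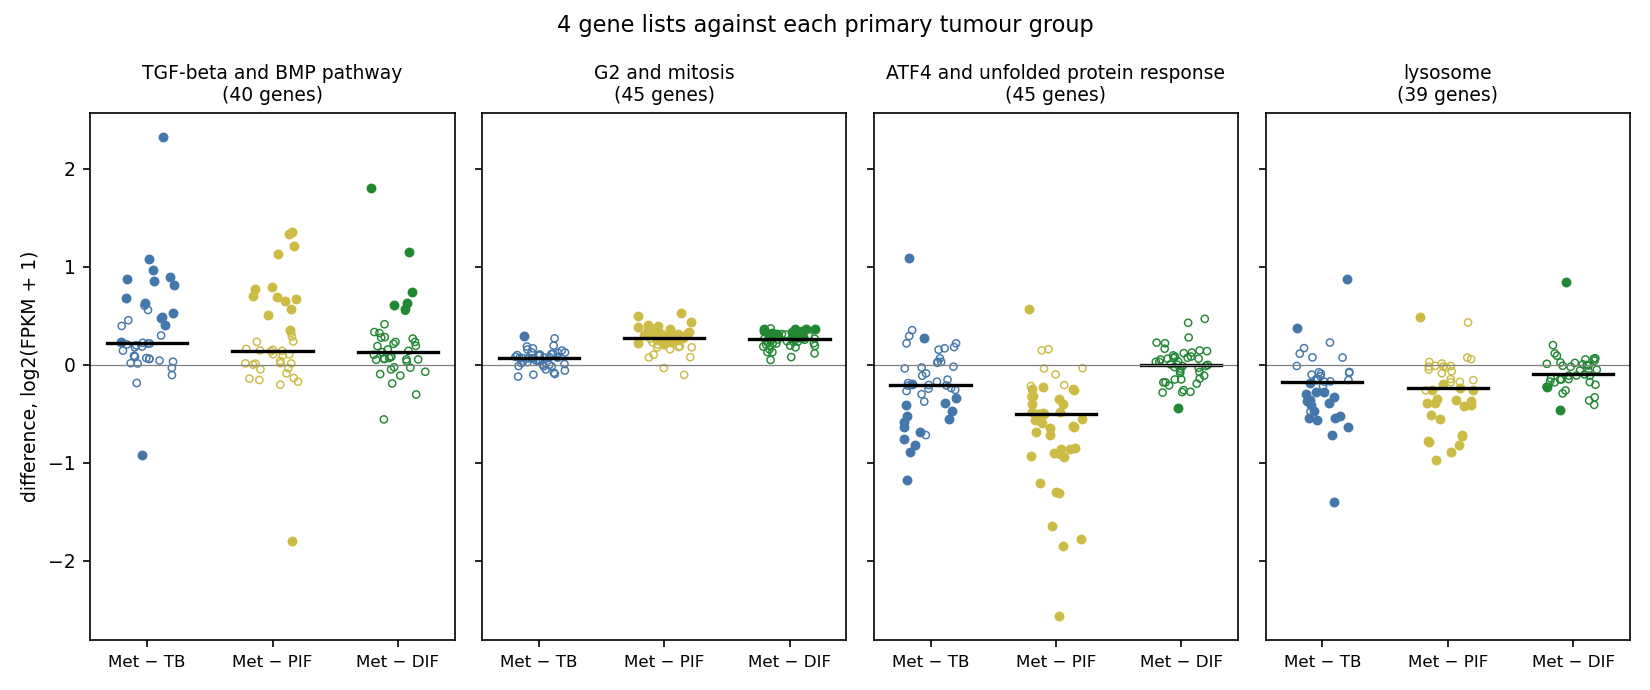
Differences of list members between Met and each primary group on log2(FPKM + 1), for 40 TGF-beta and BMP, 45 mitosis, 45 ATF4 and 39 lysosome genes; filled points were called in that comparison and black bars are medians. The TGF-beta and BMP medians are above 0 against all 3 groups, and the ATF4 median is near 0 against DIF.

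Matrix genes were mixed. Of 42 fibrillar collagens and other matrix genes, 13 were called higher and 2 lower, with 5 rises and 1 fall beyond all others. The falls were 5 without DIF 3, 4 without PIF 2 and 1 without Met 2 or without Met 3. Loxl1, a lysyl oxidase that crosslinks elastin, stood at 7.85, 8.46 and 8.39 FPKM in Met and at 1.49, 2.72 and 5.74 at the lowest, median and highest of the primary libraries. Plod2, which hydroxylates collagen lysines ahead of crosslinking, was at 21.6 ± 1.05 FPKM and rose by 0.45, and the thrombospondin Thbs1 rose by 1.02. Ccn3, a matricellular protein, stood at 10.7, 14.3 and 12.3 FPKM against 15.5, 21.3 and 25.8, a fall of 0.70 (adjusted p = 4.48e-05). All 4 were beyond every primary library. Against DIF the list leaned the other way, with 4 higher, 7 lower and a median of −0.14, where the medians against TB and PIF were 0.19 and 0.41. The shares of all genes against DIF were 2.36% higher and 1.5% lower. In the fit with the primary libraries as 1 group, 1 was higher.

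Among 37 matrix proteases and their inhibitors 9 were higher and 9 lower. The rises beyond all others included Adam9 and Adam10, membrane sheddases, Timp3, a metalloprotease inhibitor, and Serpinf1, a secreted serpin, and no fall was beyond all others. Adam10 stood at 112, 108 and 108 FPKM in Met and at 71.6, 81.2 and 84.0 in the primary libraries, a rise of 0.45 against groups that differed little from each other (adjusted p = 5.82e-05). Htra1, a secreted serine protease, was the largest rise that overlapped, at 25.2 to 31.4 FPKM in Met, 27.8 to 41.9 in DIF and 1.12 to 3.66 in TB and PIF. The other large overlapping rises were Mustn1, Ogn, Notum and Nqo1, and the large overlapping falls were Prl2c2, Prl2c3, Nox3, Atp13a4 and Mmp1a. Met lay between DIF and the other groups for Ogn, overlapped PIF for Nqo1 and overlapped DIF for the rest. Prl2c2 and Prl2c3 are near-identical proliferin copies between which reads may be split, so their values are uncertain.

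Of genes of the dedifferentiated melanoma state, 8 of 26 were higher and 1 lower, and of melanocyte differentiation genes 5 of 15 were lower and none higher. Against DIF, 2 genes of the first list were called higher and 2 lower, and none of the second in either direction. The medians of the lists against DIF were 0.13 and 0.02. Nuak1, a kinase of the AMPK family, stood at 11, 11.3 and 10.8 FPKM in Met and at 4.62, 5.19 and 8.72 at the lowest, median and highest of the primary libraries. Mitf, the master factor of pigment cells, was at 4.25 ± 0.827 FPKM in Met and 4.24 in DIF, against 15.2 in TB and 11.1 in PIF. Gpnmb, a melanosome glycoprotein, was below all others at 6.45 to 6.68 FPKM, but the nearest DIF library stood at 6.77 and it was not called against DIF (adjusted p = 0.405). Mitf was likewise not called against DIF (adjusted p = 0.977), and Nuak1 was (adjusted p = 0.00383). Of 16 EMT factors and cadherins 3 were higher, with Cdh2 (N-cadherin) at 51.8 ± 3.82 FPKM and Cdh13 (T-cadherin) at 12.3 ± 0.833 beyond all others, by 0.49 and 0.74.

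Genes studied in metastasis moved in both directions. Of 24 genes reported in metastatic colonisation 6 were higher and 3 lower. Nedd9, a scaffold protein amplified in mouse melanoma metastases, stood at 5.82, 5.85 and 5.81 FPKM in Met and at 2.83, 3.17 and 3.82 at the lowest, median and highest of the primary libraries. The Met values were nearly equal, and the rise of 0.71 (adjusted p = 4.2e-05) held against each group. Of 18 metastasis suppressors 2 were higher (Timp3 and Cd82) and 4 lower, of which Ndrg1 was beyond all others at 3.94 to 4.16 FPKM against 5.47 to 7.83. The count of falls was 1 without Met 3 and 2 without Met 1 or TB 2. Yap1, the effector of the Hippo pathway, stood at 16.6, 16.0 and 16.5 FPKM in Met against 11.4 to 13.6, while 5 of 26 YAP and TEAD targets were higher and 3 lower. The rises were 1 without Met 2 and 2 without Met 3, and the falls 1 without any 1 of the Met libraries.

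Of 27 interferon response genes 6 were called lower and 1 higher, with a median of −0.12. By group, 9 were lower against DIF, 4 against PIF and 1 against TB, where 1.5%, 8.8% and 4.63% of all genes were called lower. Isg15, a ubiquitin-like protein that interferon induces, stood at 2.74, 3.96 and 2.95 FPKM in Met, 4.04 to 6.0 in TB, 6.05 to 9.35 in PIF and 10.5 to 13.7 in DIF. Ifi27 stood at 41.5, 45.7 and 45.9 FPKM against 54.6, 60.0 and 72.6. Both were below every primary library, although the highest Isg15 value in Met nearly met the lowest in TB (adjusted p against TB = 0.0657). The chemokine Cxcl10, also induced by interferon, was below all others at 0.121 to 0.388 FPKM against 0.436 to 0.791. Its Met values were near the floor, so the size of that gap is uncertain. Of 14 MHC class I presentation genes 2 were lower, 1 without Met 1 and 0 without Met 2 or without Met 3. The interferon count of 6 was 3 without Met 2 or without Met 3, and 1 in the fit with the primary libraries as 1 group.

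The interferon-stimulated response element, written here as GAAA, any 2 bases and GAAA again on either strand, was found in 13 of 22 matched promoters of the list (59.1%), in 2 of 5 with a called gene and in 2.69% of the promoters of tested genes. The Isg15 promoter (chr4:156200769-156201068, minus strand, GRCm38.p6) is shown because Isg15 had the largest fall of the list. Its 3 overlapping matches, in capitals, merge into 1 run.
Isg15: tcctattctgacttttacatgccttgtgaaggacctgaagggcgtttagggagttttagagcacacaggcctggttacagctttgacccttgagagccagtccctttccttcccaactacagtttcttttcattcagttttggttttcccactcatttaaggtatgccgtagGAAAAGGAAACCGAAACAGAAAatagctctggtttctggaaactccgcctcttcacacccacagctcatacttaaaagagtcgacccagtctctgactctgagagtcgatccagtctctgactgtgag

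**Figure D5:**
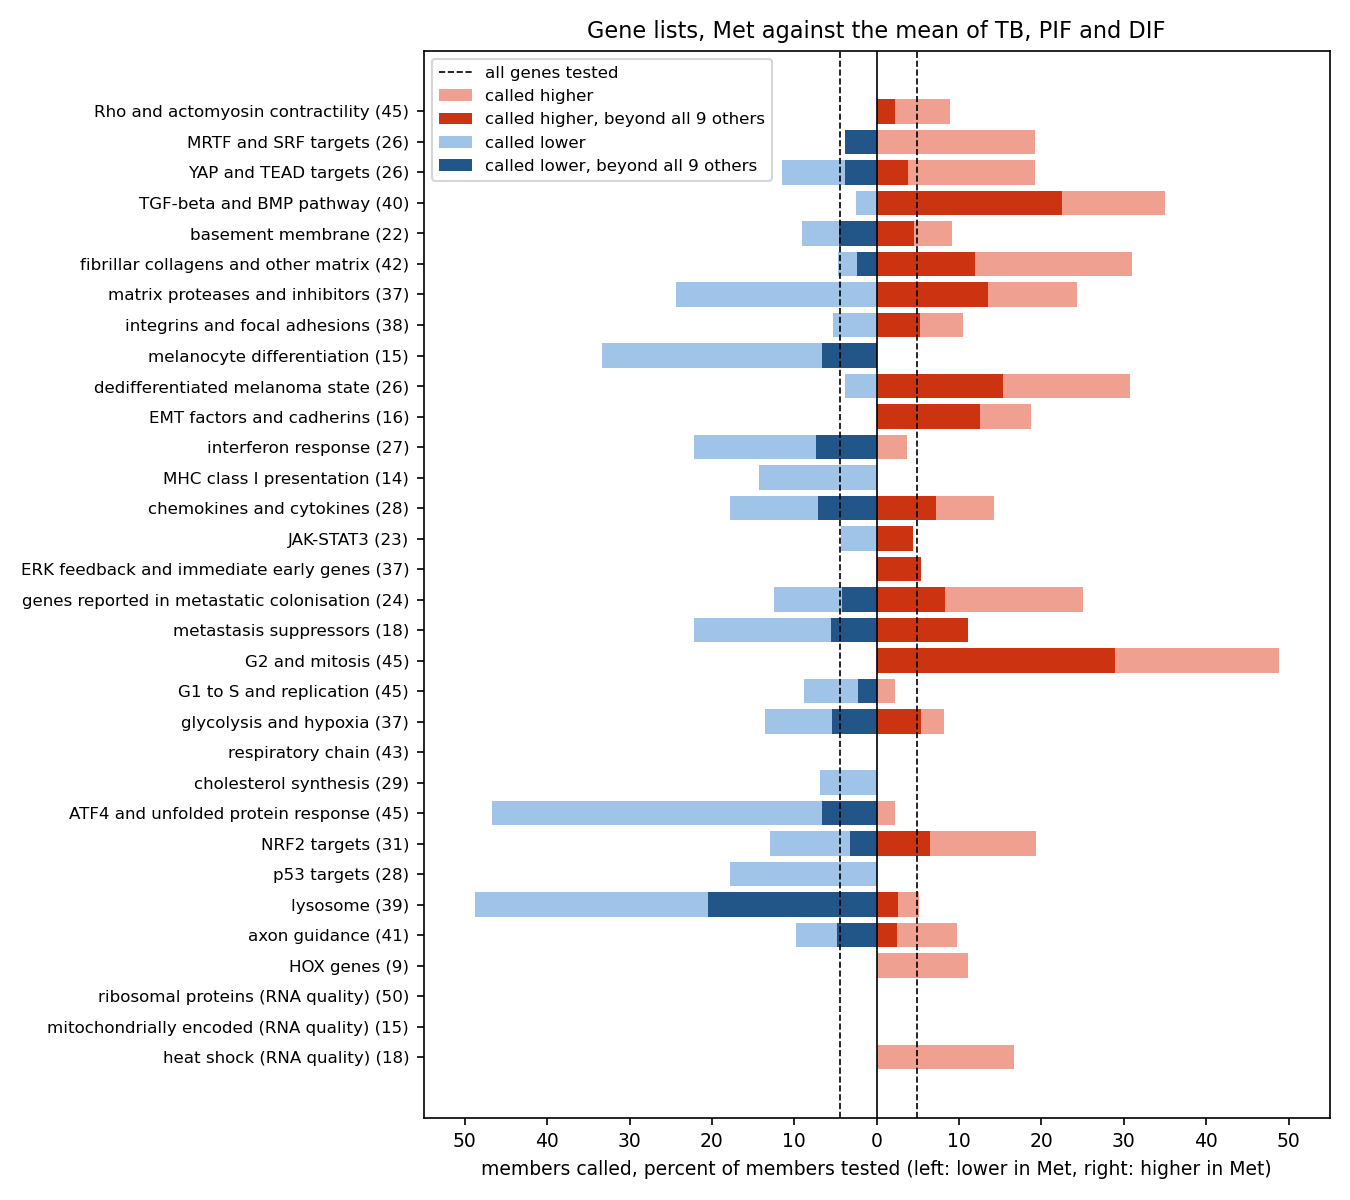
Share of tested members called higher (right, red) or lower (left, blue) in Met against the mean of TB, PIF and DIF for 29 pathway lists and 3 lists of RNA quality, members tested in parentheses; dark bars are members also beyond all 9 other libraries and dashed lines the shares of all genes tested. Long bars with a large dark part are seen for mitosis and TGF-beta and BMP on the right and for lysosome on the left; the ATF4 bar is long but mostly pale.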

How the data were processed

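RNA of 12 libraries, 3 per group, was measured by sequencing. The submitters' processing notes name fastp, HISAT2 2.0.5 and featureCounts 1.5.0-p3. Neither those notes nor the labels state a genome build or a strand setting. Reads were paired, of 150 bases, per the labels. The deposited values are FPKM per gene of 56748 genes. After multiplication by gene length, each library's FPKM fell on whole steps (100% of values, tolerance 0.001), and the steps were counted as reads, 15.5 to 18.4 M per library. The test was limma 3.58.1 (R 4.3.3) on log2(FPKM + 1), with a mean for each group, a trended variance and 8 residual degrees of freedom, two-sided, adjusted after Benjamini and Hochberg over the 12661 genes. Sample groups came from the labels. The test was run on simulated data first. Gene lists, members and tests were chosen with earlier results of these data known. Named genes were the 15 rises and 15 falls with the largest difference from the nearest primary group among called protein-coding genes beyond all 9 libraries, without predicted or clone names, 3 members per list, by p, the most abundant markers, the 5 largest overlapping rises and falls, and Mitf, Gpnmb, Acta2, Htra1 and Xist. Other genes, list members past the first 3 included, were chosen after their values were seen. Promoters were matched by symbol to RefSeq (GRCm38.p6), for 9025 genes.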

Additional observations from a re-analysis of the deposited data

How the results depend on the processing

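The 30 named rises and falls were picked for large differences in these same values, so their keeping the call is no independent support. Of them, 25 stayed called with the same sign under every choice tried. Smoc2, Basp1, Csn3, Nkain4 and Grb10 lost the call only when the 9 primary libraries were fitted as 1 group (limma adjusted p = 0.138, 0.0551, 0.093, 0.0746 and 0.101). That fit puts differences among TB, PIF and DIF into the spread and called 156 genes in place of 1181, 68.6% of them higher in place of 51.7%, and 24 of the list members in place of 209. The intersection-union test called 68. With 1 library left out, calls ranged from 667 to 1408 for Met against the mean of the groups, 793 to 1467 against TB, 1624 to 2298 against PIF, 234 to 595 against DIF and 120 to 223 for list members. Genes beyond all others numbered 706 to 1248, against 670 with every library. Leaving a library out can only keep or raise that count. The lowest counts came without Met 3 for the main contrast, DIF and the list members, and without TB 3 for TB; without Met 2, 257 genes were called against DIF and 124 list members, without DIF 1 or DIF 2 286 and 277 against DIF, and without TB 2 or Met 3 800 and 810 against TB. The cause was not tested. Pseudocounts of 0.1 and 5, no filter, a filter at 2, quantile normalization, no trend and voom on rebuilt reads gave 1146, 1179, 1092, 988, 1242, 1148 and 1369 calls. Deviations from group means correlated at −0.201 to 0.332 (median 0.0503) for libraries with the same replicate number. For different numbers they correlated at −0.328 to 0.315 (median −0.0338). These ranges overlap and cannot show whether replicate numbers pair the libraries. With the number as a replicate block, 1234 genes were called, 1093 of them shared with the fit without it, and 1317, 2342 and 537 against TB, PIF and DIF. Groups of 3 libraries limit all comparisons.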

Other observations

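The largest rise over all genes tested belonged to a gene with no assigned protein. Gm37416, whose biotype the deposited table gives as TEC, spans chromosome 2, 16027919 to 16028236 on the minus strand, a stretch of 318 bases. It stood at 193, 170 and 176 FPKM in Met and at 10.6, 14.5 and 21.1 at the lowest, median and highest of the primary libraries, 12.2-fold higher by mean FPKM (difference 3.54 ± 0.11, limma adjusted p = 3.58e-09). The U1 small nuclear RNA gene Rnu1a1 moved the other way, at 18.1, 22.3 and 23.6 FPKM against 31.1, 52.9 and 72.7, but reads of its near-identical copies may be split. Of the 496 genes called and beyond all others, 3.92% of those tested, 31 were not protein-coding. Of the 12661 genes tested, 10837 were protein-coding, a smaller share than among the 496. Gm37416 and Rnu1a1 were chosen after their values were seen.

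Gapdh, often used as a reference gene, had a difference of 2.84 that was not called (adjusted p = 0.0903). The deposited values ran from 1.03 to 52.9 FPKM over the primary libraries, with 1.28, 34.1 and 52.9 within PIF alone, and stood at 61.5, 59.6 and 32.5 in Met. The glycolytic genes Pgk1, Tpi1 and Eno1 stood between 245 and 467 FPKM in all primary libraries. The near-identical processed copies of Gapdh can take its reads, so its values are uncertain in this table.

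Falls were unevenly spread over chromosomes. Chromosome 15 held 24 of the 203 falls that were called and beyond all others, 4.77% of its 503 tested genes against 1.6% of all genes tested, and 7 such rises (1.39% against 2.31%). The next highest share of such falls was 2.48%, on chromosome 7. This comparison was made after the values were seen and was not tested. Median differences between Met and the mean of the primary groups ran from −0.03 on chromosome 12 to 0.04 on chromosome 6, and the share of genes called from 6.2% on chromosome 5 to 12.9% on chromosome 6.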
